A study of Rattus norvegicus with 10 samples.

Results

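PIWI proteins and the enzymes and cofactors that make piRNAs were examined in rat testes on Affymetrix arrays. The set listed 10 genes, namely Piwil1, Piwil2, Piwil4, Mov10l1, Mael, Asz1, Pld6, Gtsf1, Henmt1 and Pnldc1. A gene was taken from the probe sets that carried its symbol alone, and 9 of the 10 had 1 such probe set each, among 18166 genes measured. Mov10l1, the helicase that hands piRNA precursors on for processing, was not analysed here. The arrays were 10 in all, from Zucker rats of 14 weeks that were labelled sexually mature. Obese rats gave 4 arrays of normal testes and 4 of under-developed testes, and lean rats gave 2 arrays of normal testes. Zucker fa/fa rats are obese through a mutated leptin receptor gene. The label of every sample, lean ones included, gives the fa/fa model and a protocol for obese animals, so the genotype of the lean rats was not settled. The replicates are called biological, but the labels do not tie each testis to its own rat, so a p-value here covers the spread among these arrays, which may be technical.

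PIWI proteins bind piRNAs, short RNAs of the germ line that guide the silencing of transposons. Long precursor RNAs are cut at the mitochondrial surface, loaded onto a PIWI protein, trimmed at the 3′ end and methylated there. In rodents Piwil4 acts mainly in fetal and newborn germ cells, Piwil2 from fetal germ cells through meiosis, and Piwil1 from pachytene spermatocytes to round spermatids. Pachytene piRNAs, made in the adult testis, and several of the genes that make them are switched on by the transcription factor MYBL1.

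The 8 measured genes other than Piwil4 had lower values on under-developed replicates 1 to 3, as described below. The sequence before the start site is shown for some of the listed genes. A link between sequence and values was not tested. RefSeq (GRCr8) gave promoter sequence for 9 of the 10 listed genes, Mov10l1 included and Piwil2 not. Each window held the 250 bases before the start of the transcript that this sequence table uses for the gene, and some genes have transcripts that start further upstream. Against the gene's whole RefSeq span, 3 windows lay outside (Mael, Asz1 and Pld6), 4 lay partly inside (Piwil1 by 132 bases, Pnldc1 by 122, Piwil4 by 107 and Mov10l1 by 79) and 2 lay wholly inside (Gtsf1 and Henmt1). Of 33460 windows of all genes that could be placed, 42.2% lay partly or wholly inside their gene and 21.8% wholly inside. MYB-type sites were searched as CAACNG or TAACNG and the E-box as CACGTG, both on either strand, and a MYB-type site and an E-box cannot share bases. Piwil1 is shown because it had the largest fitted difference, and Mael and Pnldc1 because they too held both motifs. Piwil4 is shown because its values stood apart, and its window held neither motif. The windows of Asz1 and Pld6, not shown, held neither motif as well, although both genes had lower values. Capitals mark the motifs, and each sequence runs 5′ to 3′ towards the gene.
Piwil1, chr12:33606584-33606833, minus strand: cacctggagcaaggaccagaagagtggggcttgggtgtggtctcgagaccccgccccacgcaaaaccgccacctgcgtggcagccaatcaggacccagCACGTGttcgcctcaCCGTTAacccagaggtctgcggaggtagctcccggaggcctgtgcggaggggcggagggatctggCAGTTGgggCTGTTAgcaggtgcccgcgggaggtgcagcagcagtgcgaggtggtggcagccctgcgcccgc
Mael, chr13:81029624-81029873, minus strand: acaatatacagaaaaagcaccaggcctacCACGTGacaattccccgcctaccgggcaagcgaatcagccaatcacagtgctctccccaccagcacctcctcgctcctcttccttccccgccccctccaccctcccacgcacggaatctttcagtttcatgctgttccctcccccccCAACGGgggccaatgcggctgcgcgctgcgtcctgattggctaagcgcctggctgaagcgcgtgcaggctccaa
Pnldc1, chr1:50390756-50391005, plus strand: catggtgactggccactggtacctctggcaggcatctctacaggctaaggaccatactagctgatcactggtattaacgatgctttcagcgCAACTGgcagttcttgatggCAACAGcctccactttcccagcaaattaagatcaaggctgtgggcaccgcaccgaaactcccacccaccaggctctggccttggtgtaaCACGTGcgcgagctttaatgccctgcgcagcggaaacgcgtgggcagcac
Piwil4, chr8:19861221-19861470, minus strand: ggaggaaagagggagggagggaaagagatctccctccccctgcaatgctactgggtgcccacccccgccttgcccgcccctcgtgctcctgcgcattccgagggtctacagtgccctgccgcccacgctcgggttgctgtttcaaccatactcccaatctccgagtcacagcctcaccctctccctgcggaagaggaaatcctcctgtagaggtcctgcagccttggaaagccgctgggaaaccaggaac
A MYB-type site was present in 6 of the 9 members' windows, beside 44.2% of 33469 windows of all genes, and Piwil1 held 3 of them (2.78% of all windows held at least 3). The E-box was present in 4 of the 9 (Piwil1, Mael, Pnldc1 and Mov10l1), beside 5.59% of all windows. Without the 2 windows wholly inside their gene, 4 of 7 held a MYB-type site and 4 of 7 an E-box. The E-box was present in 5 of 20 windows of other piRNA pathway genes (Ddx4, Tdrd1, Fkbp6, Dnmt3l and Stk31) and 3 of 11 of spermatocyte marker genes. It was present in 1 of 10 of microRNA pathway genes, 2 of 13 of Sertoli marker genes and 0 of 9 of round spermatid marker genes. MYB-type sites were present in 11 of 20 windows of other piRNA pathway genes and 8 of 11 of spermatocyte marker genes. For microRNA pathway, Sertoli marker and round spermatid marker genes these were 4 of 10, 5 of 13 and 3 of 9. CpG sites, counted against the number that base composition gives, were above the median of all windows (0.383) in 8 of the 9, with ratios from 0.102 in Gtsf1 to 0.761 in Mael. The median ratio was 0.596 in the members, 0.750 in other piRNA pathway genes and 0.842 in microRNA pathway genes. In spermatocyte, round spermatid and Sertoli marker genes it was 0.558, 0.292 and 0.345. A match is a stretch of letters and not a site shown to be bound.

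The under-developed arrays were not alike, and this touched every result below. Replicates 1 to 3 differed widely from the normal testes and replicate 4 lay close to them: 7, 3, 8 and 0 of the 9 members were at least 2-fold below the normal obese mean in replicates 1 to 4. Over all genes these shares were 15.6%, 6.18%, 16.8% and 0.00550%. None of the 9 was 2-fold above that mean on any of these arrays (15.5%, 7.56%, 19.2% and 0.0385% of all genes were). Below all 6 normal arrays lay 8, 8, 8 and 2 members (37.8%, 38.3%, 32.0% and 18.6% of all genes), and above all of them 0, 1, 1 and 0, in each case Piwil4 (40.7%, 34.2%, 49.5% and 17.8% of all genes). Each comparison is therefore given with and without replicate 4, a choice made with the data in view. The SD among the 4 normal obese arrays ran from 0.03 (Mael) to 0.14 (Pnldc1) on the log2 scale, and the range over all 6 normal arrays from 0.064 (Mael) to 0.47 (Piwil4).

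The 2 PIWI genes of adult spermatogenesis had the largest fitted differences of the members, although Gtsf1 was lower than Piwil1 in replicate 3 and Henmt1 was lower than it in replicate 2, each against its own normal mean. Piwil1, which carries pachytene piRNAs and without which mouse germ cells stop as round spermatids, stood at log2 values of 10.83, 10.79, 10.85 and 10.88 in normal obese testes, 10.80 and 10.90 in lean testes and 6.79, 9.75, 6.29 and 10.85 in under-developed replicates 1 to 4. Replicates 1 and 3 thus lay 16.5-fold and 23.4-fold below the normal obese mean, replicate 2 lay 2.13-fold below it, and replicate 4 lay within the range of the normal arrays. In replicates 1 to 3, 0.121%, 4.71% and 2.07% of all genes were as low against the normal obese mean as Piwil1. Piwil2, without which mouse germ cells stop early in meiosis, stood at 10.26, 10.26, 10.26 and 10.36 in normal obese testes, 10.26 and 10.22 in lean testes and 7.30, 8.92, 6.48 and 10.24 in under-developed replicates 1 to 4. The order of the 4 under-developed arrays was that of Piwil1, and all 4 under-developed values lay below the 4 normal obese ones, although replicate 4 lay above 1 of the lean arrays.

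Piwil4 differed from them. Its values were 6.56, 6.53, 6.66 and 6.73 in normal obese testes, 6.27 and 6.52 in lean testes and 6.55, 6.90, 6.997 and 6.55 in under-developed replicates 1 to 4. Replicates 2 and 3 lay slightly above all normal arrays and replicates 1 and 4 within them. These values were near the median of all probe sets (6.14 to 6.38 by array), no detection call was used here, and whether they are above background was not tested. The fitted difference of Piwil4 between under-developed and normal obese testes was 0.13 ± 0.14 (SE, limma adjusted p = 0.487), and 0.19 ± 0.13 (SE, limma adjusted p = 0.250) without replicate 4. Its sign depended on scaling, with 0.01 after median centring and −0.38 and −0.77 with arrays centred on ribosomal protein or Sertoli genes.

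**Figure D1:**
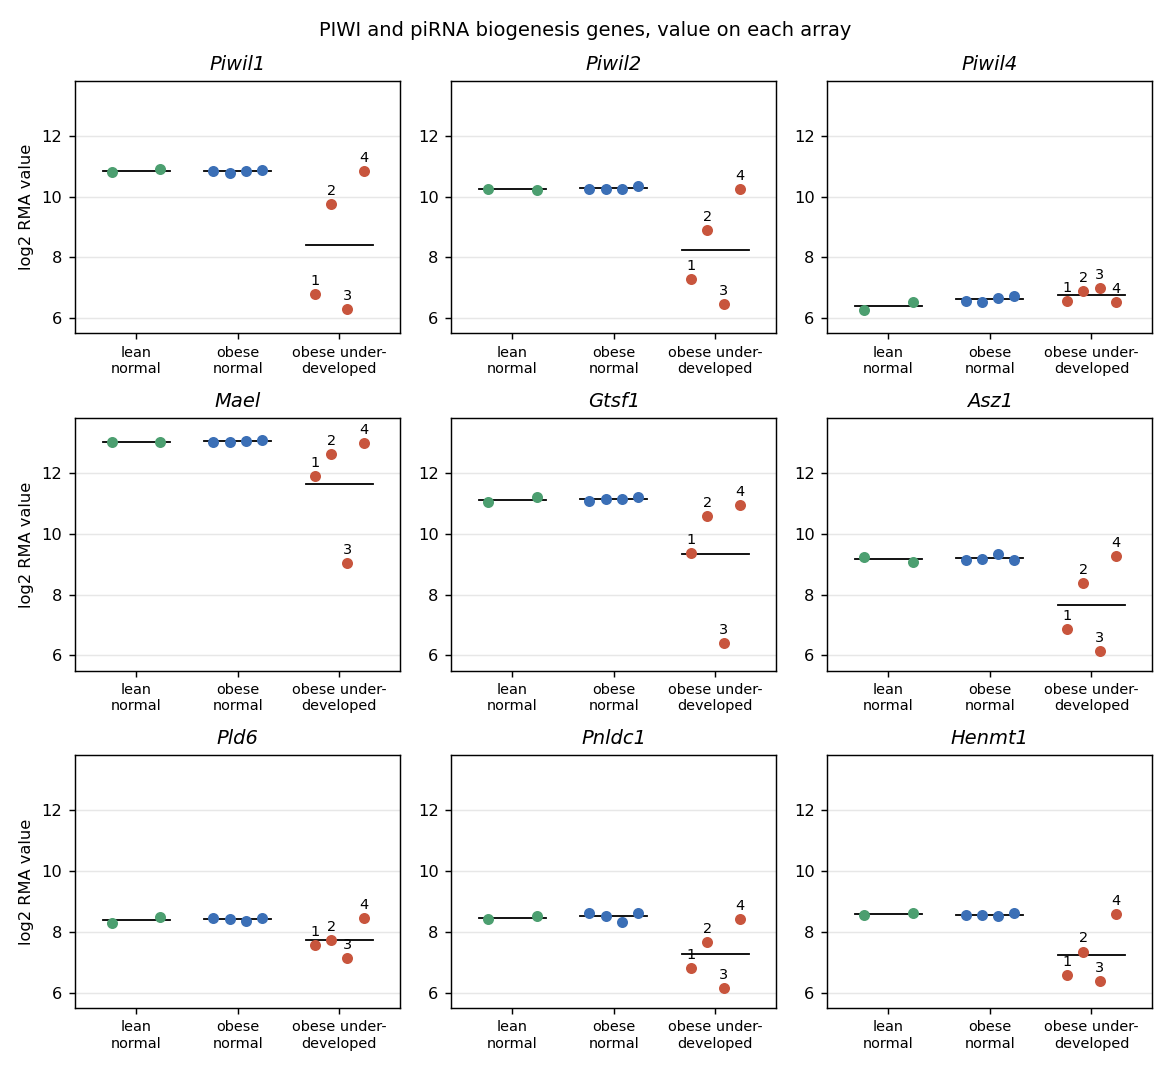
Log2 RMA value (y axis) of the 9 measured members on each of the 10 arrays, by group (x axis), with points for arrays, lines for group means and numbers for under-developed replicates. Replicate 4 sits close to the normal testes in each panel, just below all 6 of them for Mael and Gtsf1, and replicates 1 to 3 sit below them for every gene except Piwil4.

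Mael and Gtsf1 act with the PIWI proteins, Mael in the germ granules and in transposon silencing and Gtsf1 as a zinc finger cofactor of PIWI cleavage. Mael stood at 13.003, 13.01, 13.05 and 13.07 in normal obese testes, 13.01 and 13.02 in lean testes and 11.91, 12.61, 9.05 and 12.998 in under-developed replicates 1 to 4. Gtsf1 stood at 11.07, 11.13, 11.15 and 11.20 in normal obese testes, 11.05 and 11.20 in lean testes and 9.38, 10.59, 6.40 and 10.95 in under-developed replicates 1 to 4. For both genes replicate 3 was far below replicate 1, while Piwil1 was nearly as low in replicate 1 as in replicate 3. In replicate 1, Piwil1 (6.79) stood close to the median of all probe sets on that array (6.27). Mael (11.91) and Gtsf1 (9.38) stood far above that median. The part of this in the contrast was not tested. Mael was 2.18-fold below the normal obese mean in replicate 1 and 15.8-fold below it in replicate 3, and for Gtsf1 these were 3.38-fold and 26.6-fold. Replicate 4 lay below all 6 normal arrays for these 2 genes (18.6% of all genes did so), by −0.04 and −0.19 from the normal obese mean.

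Asz1 and Pld6 sit on the outer mitochondrial membrane, Asz1 as a scaffold of the processing site and Pld6 as the nuclease that cuts piRNA precursors. Asz1 ranged from 9.07 to 9.32 on the 6 normal arrays and stood at 6.88, 8.39, 6.14 and 9.27 in under-developed replicates 1 to 4. Pld6 ranged from 8.28 to 8.47 on the normal arrays and stood at 7.57, 7.73, 7.14 and 8.44. Apart from Piwil4, Pld6 had the smallest fitted difference of the members, and its replicates 1 to 3 lay 1.80-fold, 1.61-fold and 2.41-fold below the normal obese mean.

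Pnldc1 trims the 3′ ends of piRNA intermediates and Henmt1 then adds a methyl group that protects the end. Pnldc1 ranged from 8.32 to 8.62 on the normal arrays and stood at 6.82, 7.65, 6.13 and 8.42 in under-developed replicates 1 to 4. Henmt1 ranged from 8.50 to 8.63 and stood at 6.58, 7.35, 6.39 and 8.59. In replicate 3, Piwil1, Piwil2, Asz1, Gtsf1, Pnldc1 and Henmt1 all lay between 6.13 and 6.48, close to the median of all probe sets on that array (6.38).

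**Figure D2:**
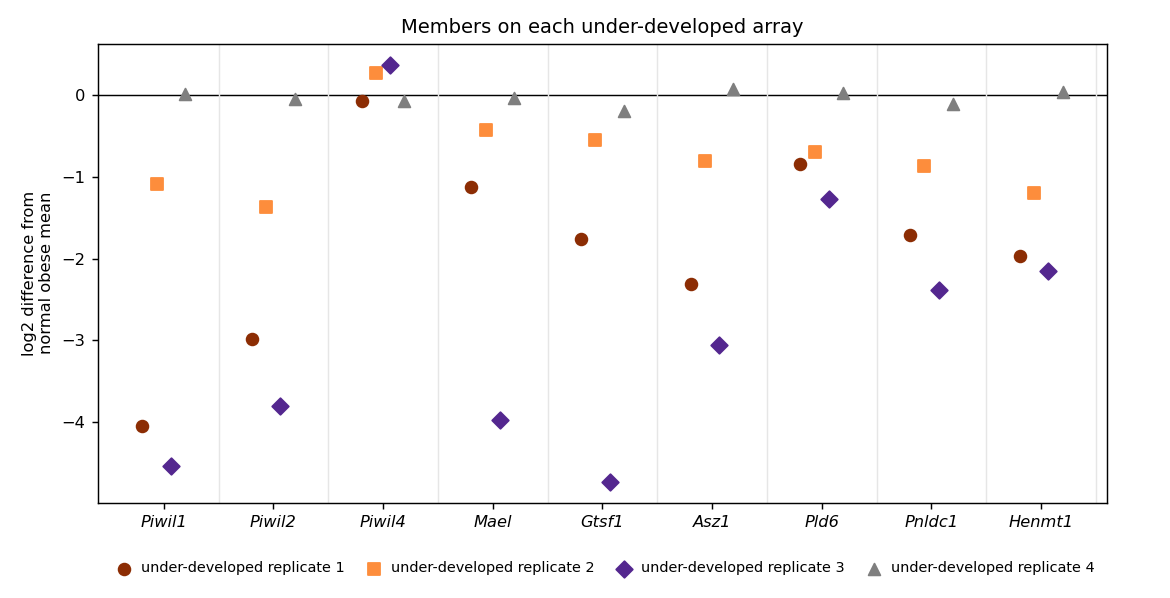
Log2 value of each under-developed array minus the normal obese mean (y axis) for the 9 measured members (x axis), with a marker for each replicate. Mael and Gtsf1 were far lower in replicate 3 (−3.98 and −4.73) than in replicate 1 (−1.12 and −1.76), and Piwil1 was low in both (−4.55 and −4.05).

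Under-developed and normal testes of obese rats were first compared with all arrays, where limma called 0 of the 9 members, as it called 0 of all 18166 genes (0%). At an unadjusted p under 0.05, 6 members were lower and 0 higher, where 22.3% of all genes were lower and 24.4% higher. The fitted log2 difference was −2.42 ± 0.91 (SE) for Piwil1, −2.05 ± 0.69 for Piwil2 and −0.69 ± 0.24 for Pld6, with limma adjusted p of 0.0767, 0.0703 and 0.0703. The 2 groups did not overlap for 3 members that were lower (Piwil2, Mael and Gtsf1) and 0 that were higher, and without overlap 10.4% of all genes were lower and 7.44% higher. The median over the members was −1.39 log2, beside 0.06 over all genes.

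Without under-developed replicate 4, 8 of the 9 members fell in limma and Piwil4 was not called, where 26.4% of all genes fell and 29.6% rose. For these 8 the remaining arrays did not overlap, and 27.8% of all genes were lower without overlap. The differences of the 8 ran from −0.93 for Pld6 to −3.23 for Piwil1, with a median over all 9 of −1.84, beside 0.07 over all genes. Piwil1 fell by 3.23 ± 0.69 on the log2 scale (SE, limma adjusted p = 0.00388) and Piwil2 fell by 2.72 ± 0.46 (limma adjusted p = 0.00123). The smallest limma adjusted p was that of Henmt1 (1.93e-04), whose replicates 1 to 3 were the most alike after Pld6 and Piwil4. Mael was the nearest to the threshold (limma adjusted p = 0.0493), and after quantile normalization Mael and Gtsf1 were no longer called, which left 6 members. With arrays centred on ribosomal protein or Sertoli genes all 9 were called lower, but so were 69.1% and 84.0% of all genes, and the median of all genes shifted to −0.65 and −1.13 log2.

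Pairs of members were compared within each array, which removes the array's scaling, with 4 under-developed and 4 normal obese arrays in an exact permutation test (two-sided, adjusted over the 6 pairs that could be formed). Relative to Gtsf1, Mael was higher in under-developed testes by 0.42 log2 (exact permutation p = 0.0286, the smallest that these arrays allow, adjusted p = 0.171), in 4 of 4 arrays. The shifts by replicate were 0.63, 0.13, 0.75 and 0.15, against an SD of 0.03 among the normal obese arrays. Relative to Piwil4, Piwil2 was lower by 2.18 log2 (exact permutation p = 0.0857, adjusted p = 0.257), lower in 3 of 4 arrays. Piwil1 against Piwil2 shifted by −1.06, 0.28, −0.74 and 0.05 in replicates 1 to 4 and so went both ways (exact permutation p = 0.429, adjusted p = 0.514). Henmt1 against Pnldc1 shifted by −0.26, −0.33, 0.23 and 0.15 (exact permutation p = 0.743, adjusted p = 0.743), so no difference between these 2 enzymes was detectable with 4 arrays. Asz1 against Pld6 shifted by −1.47, −0.12, −1.79 and 0.05 (exact permutation p = 0.2, adjusted p = 0.3) and Piwil1 against Piwil4 by −3.97, −1.37, −4.92 and 0.09 (exact permutation p = 0.143, adjusted p = 0.286).

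On average, spermatocyte and spermatid markers were lower in under-developed replicates 1 to 3, somatic markers were higher, and spermatogonia markers differed little. The mean of 15 spermatocyte marker genes was −2.27, −0.69, −3.75 and −0.01 log2 from its normal obese mean in under-developed replicates 1 to 4, and that of 10 round spermatid markers by −1.74, −0.72, −4.42 and −0.09. The means of both lists stayed between −0.05 and 0.05 on the 6 normal arrays. The 10 elongating spermatid markers differed by −2.65, −0.61, −3.80 and −0.04. The 11 spermatogonia markers differed by −0.12, −0.16, 0.01 and −0.08. Sertoli cell markers (17 genes) differed by 1.29, 0.90, 1.39 and −0.01, and macrophage markers (13 genes) by 2.12, 1.31, 1.96 and −0.07. Leydig cell markers (9 genes) differed by 1.43, 0.87, 1.62 and −0.23. Peritubular myoid markers (4 genes) differed by 1.17, 0.92, 1.88 and −0.30, and endothelial markers (4 genes) by 0.87, 0.63, 0.86 and 0.00. Without replicate 4, 14 of 15 spermatocyte, 9 of 10 round spermatid and 10 of 10 elongating spermatid markers fell in limma and 0 rose. Leydig (7 of 9), peritubular myoid (3 of 4) and endothelial (3 of 4) markers rose and 0 fell. Of the Sertoli markers 12 of 17 rose and 1 fell (Amh), and of the macrophage markers 12 of 13 rose and 1 fell (Aif1). Of the spermatogonia markers 3 fell and 2 rose. Over all genes 26.4% fell and 29.6% rose in this fit. In whole testes, fewer germ cells and less RNA per germ cell cannot be told apart, and the part of cell make-up in the members' values was not tested.

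Beside the spermatocyte markers on the same array, most members were lower on some arrays and higher on others. Piwil1 lay below the mean of the spermatocyte list by −1.78, −0.39 and −0.80 log2 in replicates 1 to 3, and Piwil2 by −0.72, −0.67 and −0.06. Pld6 lay above it by 1.42, 0.0067 and 2.47, and Piwil4 by 2.20, 0.97 and 4.12. Asz1 (−0.05, −0.11 and 0.69), Henmt1 (0.30, −0.51 and 1.59) and Pnldc1 (0.56, −0.17 and 1.36) changed sign between replicates. Mael lay above it in replicates 1 and 2 (1.14 and 0.27) and below it in replicate 3 (−0.24), and Gtsf1 did the same (0.51, 0.15 and −0.99). These are single arrays, and the differences between them were not tested. Mean levels in normal obese testes were 6.62 for Piwil4, 8.42 for Pld6, 8.52 for Pnldc1, 8.55 for Henmt1 and 9.20 for Asz1. They were 10.28 for Piwil2, 10.84 for Piwil1, 11.14 for Gtsf1 and 13.03 for Mael. The spermatocyte list averaged 10.08 to 10.17 on those arrays. A gene that starts lower has less room to fall. Mael and Gtsf1 started above the list and also lay above it in replicates 1 and 2. The part of starting level in the differences from the list was not tested.

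**Figure D3:**
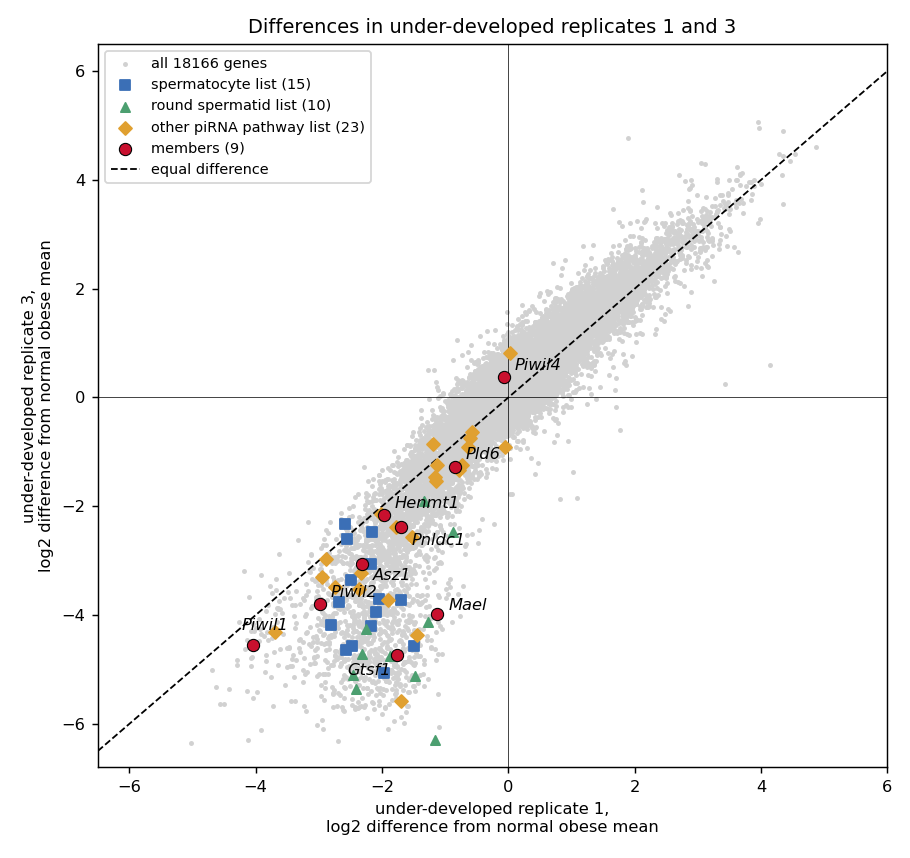
Log2 difference from the normal obese mean in under-developed replicate 1 (x axis) against replicate 3 (y axis), with a grey point for each of 18166 genes and coloured markers for the members and 3 gene lists. Piwil1 lies near the line of equal differences, while Mael and Gtsf1 lie well below it, as do most round spermatid markers.

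The genes whose pattern over the 10 arrays was most like that of a member were found by the root mean square difference of their profiles, each taken from its normal obese mean. For Piwil1 these were 1700012A03Rikl, Paqr5 and C5h6orf163, at 0.0946, 0.102 and 0.105 log2. Paqr5, a membrane progestin receptor, differed by −3.95, −1.31, −4.48 and 0.01 in under-developed replicates 1 to 4. For Piwil2 they were C14h5orf52, Spata22 and Spata25, at 0.0791, 0.0822 and 0.0864 log2, and Spata22, which acts in meiotic recombination, differed by −3.12, −1.30, −3.84 and −0.02. The nearest to Piwil4 were Rbm8a, Mir497 and Cblif (0.0786, 0.0917 and 0.0960 log2). The nearest to Pld6 were Yars1, Bbs2 and Stam2 (0.0582, 0.0591 and 0.0592 log2), genes of tRNA charging, of the ciliary BBSome and of endosomal sorting.

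Of 24 other genes of the piRNA pathway, 23 were measured. With all arrays limma called 0 of them. At an unadjusted p under 0.05, 18 were lower and 0 higher, beside 22.3% and 24.4% of all genes. Without replicate 4, 21 of the 23 fell in limma and 0 rose, beside 26.4% and 29.6% of all genes. Their median was −1.59 log2, beside 0.07 over all genes. Tdrd1, a Tudor protein that binds the methylated arginines of PIWI proteins, differed by −3.70, −1.27, −4.31 and −0.02 in under-developed replicates 1 to 4, close to Piwil1. Exd1, a partner of Tdrd12 in the amplification cycle, differed by −2.96, −1.53, −3.30 and −0.13. Tdrd6, a large Tudor protein of the chromatoid body, differed by −1.70, −0.56, −5.58 and 0.05, and the germ granule helicase Ddx4 by −1.45, −0.45, −4.37 and 0.02, so for these 2 replicate 3 was far below replicate 1, as for Mael and Gtsf1.

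Mybl1, the activator of pachytene piRNA genes, averaged 10.65 ± 0.03 (SD, n = 4) in the normal testes of obese rats. Under-developed replicates 1 to 4 lay −1.78, −1.04, −2.38 and −0.03 from that mean, which is less than Piwil1 in each of replicates 1 to 3. It fell by 1.73 ± 0.26 on the log2 scale without replicate 4 (SE, limma adjusted p = 6.70e-04). Tdrkh, the mitochondrial partner of Pnldc1, differed by −1.15, −0.91, −1.54 and 0.19. The 2 genes of the list that were not called without replicate 4 were Tex15, a nuclear factor of piRNA-guided silencing (−0.43 ± 0.18, SE), and Morc1, named here after its values were seen (0.42 ± 0.19, SE). Dnmt3l, the cofactor of DNA methylation in fetal germ cells, was the smallest in the fit of all arrays (−0.33 ± 0.25, SE), with differences of −0.57, −0.60, −0.64 and 0.50.

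Genes of the microRNA pathway, which use Argonaute proteins related to PIWI proteins in all cells, were described beside them. Of 13 listed genes 11 were measured, and with all arrays limma called 0 of them. At an unadjusted p under 0.05, 1 was lower and 5 were higher, beside 22.3% and 24.4% of all genes. Without replicate 4, 5 rose and 2 fell (29.6% of all genes rose and 26.4% fell), with a median of 0.22 log2, beside 0.07 over all genes. The 2 that fell, named here after their values were seen, were Drosha, the nuclease that cuts microRNA precursors in the nucleus (−0.51 ± 0.14, SE, limma adjusted p = 0.0112), and Xpo5, which exports them (−0.57 ± 0.11, SE, limma adjusted p = 0.00215). Prkra, a partner of Dicer, differed by 2.46, 1.84, 2.92 and −0.03 in under-developed replicates 1 to 4, and the Argonaute genes Ago1 and Ago3 by 0.93, 0.31, 1.43 and 0.16 and by 0.64, 0.42, 1.03 and 0.09. Tnrc6a, a silencing partner of Argonaute, differed by 0.75, 0.55, 1.83 and 0.29. The fitted differences in all arrays were 0.03 ± 0.13 (SE) for Tnrc6b, 0.00 ± 0.16 for Tarbp2 and 0.04 ± 0.25 for Ago4.

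The related genes of 2 members outside the germ line were also higher. Mov10, the relative of Mov10l1, differed by 1.25, 0.39, 1.02 and 0.04, and Parn, the relative of the trimmer Pnldc1, by 1.34, 1.20, 2.02 and −0.04. Without replicate 4 both rose in limma (adjusted p = 0.00331 and 2.60e-04), whereas Pnldc1 fell by 1.65 ± 0.30 on the log2 scale (SE). Of the 5 measured relatives (Ago1, Ago3, Ago4, Mov10 and Parn) 4 rose and 0 fell, beside 29.6% and 26.4% of all genes. After Sertoli centring the fitted differences of Ago1, Ago3, Tnrc6a and Mov10 in all arrays were negative (−0.19, −0.35, −0.04 and −0.22), and without replicate 4, 9 of the 13 microRNA genes and relatives were called lower and 2 higher. With ribosomal protein centring these were 6 and 2, and with the values as deposited 2 and 7, so the direction of this group depended on scaling.

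**Figure D4:**
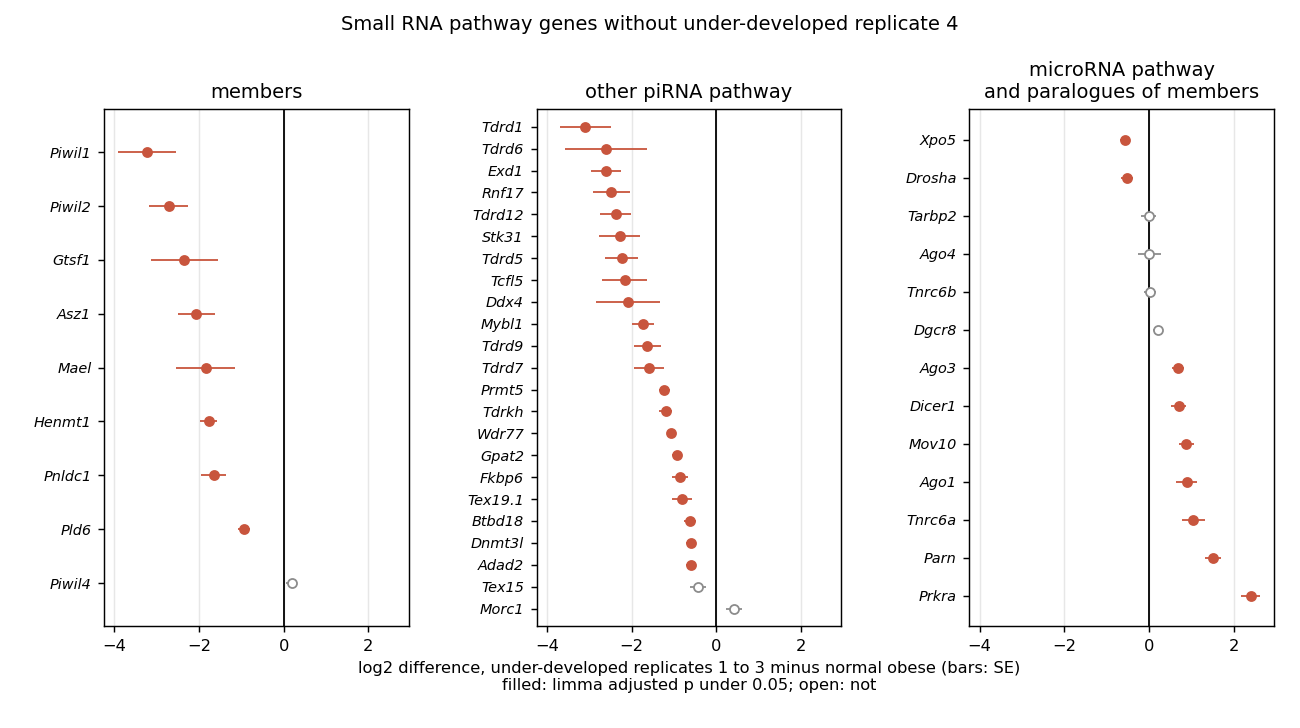
Log2 difference (x axis, with SE as bars) between under-developed replicates 1 to 3 and the 4 normal obese arrays for the members, the other piRNA pathway genes and the microRNA pathway genes with relatives of members. Filled points passed limma at an adjusted p under 0.05, which 8 of 9 members and 21 of 23 other piRNA genes did, all lower. Over all genes 26.4% were called lower.

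Between normal testes of obese and lean rats no member was called. For Piwil4 the 4 obese values ran from 6.53 to 6.73 and the lean values were 6.27 and 6.52. The means differed by 0.23 log2, beside an SD of 0.09 among the obese and 0.18 among the lean arrays. Limma called 0 of the 9 members and 0 of all genes (0%), and at an unadjusted p under 0.05, 0 members were past the threshold (0.319% of all genes lower and 0.121% higher). The fitted differences, obese minus lean, ran from −0.04 to 0.23 log2, and Piwil4 had the highest (0.23 ± 0.17, SE, limma adjusted p = 1.00). The spread of this fit includes the under-developed arrays. The SE of the members ran from 0.17 log2 for Piwil4 to 1.11 for Piwil1. A difference must be well above its SE to be called, so for Piwil1 even differences larger than 1.11 log2 could have been missed. With the normal obese and lean arrays fitted alone, 0 of the 9 members were called as well.

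Under-developed testes of obese rats were also set against normal testes of lean rats, a comparison that shares the under-developed arrays with the first. With all arrays limma called 0 of the 9 members and 0 of all genes (0%), and 4 members were lower at an unadjusted p under 0.05, beside 14.3% of all genes. Without replicate 4, 6 members fell (23.2% of all genes fell and 25.6% rose), and Piwil4, Mael and Gtsf1 were not called. Piwil4 stood 0.36 ± 0.17 (SE, limma adjusted p = 0.166) above the lean testes with all arrays and 0.42 ± 0.16 (SE, limma adjusted p = 0.0535) without replicate 4.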

How the data were processed

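Testis RNA was biotin-labelled and hybridised to 1 Affymetrix array per sample, per the labels' protocols. The deposited table holds log2 values, 1 per probe set, which the authors computed by RMA according to the submitters' processing notes. RMA subtracts background, equalises array distributions and combines probes, so a gene's value is relative to the other genes on its array. Its version, settings and genome build are not given in the sources used here. No scanner file, slide or scan date was used.

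Of 36685 probe sets, 18511 carried 1 symbol in the platform annotation, 575 several and 17599 none. Symbols were updated through gene numbers in RefSeq (18394 matched), and the probe set with the highest mean was kept per gene (291 genes had more than 1), with no filter on dim genes. Groups came from the sample titles. limma 3.58.1 in R 4.3.3 (lmFit, eBayes) fitted a mean per group over all 10 arrays, two-sided, with Benjamini-Hochberg adjustment over all 18166 genes at 0.05. The number of arrays limits the precision. The script was tested on simulated data with known changes. Every simulated group had the spread of the normal obese arrays, so the test did not cover the wider spread of the under-developed arrays.

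The members, lists and tests were chosen with earlier results of these data known. Beside the members, the text names 3 genes with the largest and 2 with the smallest fitted difference in each pathway list, 6 genes chosen with the lists (Mybl1, Ddx4, Tdrd1, Tdrkh, Mov10 and Parn), and the 3 nearest profiles of Piwil1, Piwil2, Piwil4 and Pld6, without unnamed loci. Alternatives covered scaling, an offset of 50 on the linear scale, a filter at the 25th percentile, probe set means, moderation, array weights, the groups fitted, the replicate block and leaving out each array. A planned pair of Mov10l1 and Piwil2 could not be formed.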

Additional observations from a re-analysis of the deposited data

Results flagged for a closer look

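In groups of 4 arrays, a value was singled out when its gap to the nearest other array, divided by the range of the group, exceeded Dixon's critical value for 4 samples. Over 26 genes and 6 pairs of members, 64 groups were examined and 3 passed, and chance gives about 1 in 20. Piwil2 stood at 10.36 in normal obese replicate 4, against 10.26 in the other 3 arrays. Asz1 stood at 9.32 in normal obese replicate 3, against 9.15 to 9.16 in the other 3. Both gaps are small beside the differences of under-developed replicates 1 to 3. Dnmt3l stood at 6.45 in under-developed replicate 4, against 5.30 to 5.37 in replicates 1 to 3, and that array lay above all 6 normal arrays as well (17.8% of all genes did so).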

How the results depend on the processing

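With all arrays, 0 of the 9 members were called between under-developed and normal obese testes under each alternative except centring on Sertoli genes (9), array weights (8) and leaving out under-developed replicate 4 (8). Leaving out 1 array at a time gave 0 to 8. Without replicate 4, median centring gave 8 members, quantile normalization 6, ribosomal protein centring 9 and Sertoli centring 9. Against lean testes, array weights called 8 members and leaving out 1 array 0 to 6, with 6 without replicate 4, and the same 4 scalings without it gave 6, 6, 8 and 9. Of the 23 other piRNA genes, Sertoli centring called 19, array weights 20 and leaving out 1 array 0 to 21, and without replicate 4 the 4 scalings gave 22, 19, 22 and 23. Of the 13 microRNA genes and relatives these were 6, 9 and 0 to 9, and 9 (2 lower), 8 (1 lower), 8 (6 lower) and 11 (9 lower). Scalings combined with leaving out replicate 4 were added after the data had been seen. Over all genes, calls rose from 0 to 11740 with Sertoli centring, 9862 with array weights and 10171 without replicate 4, against lean testes to 9620 with array weights and 8866 without replicate 4, and between normal obese and lean testes to 1 with array weights and 1 when those groups alone were fitted. Array weights lower the weight of arrays that differ from their group.

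Piwil4 changed sign with ribosomal protein and Sertoli centring (−0.38 and −0.77 against normal obese testes, −0.25 and −0.57 against lean testes). The other 8 members were lower under each alternative of the comparison of obese rats. With Sertoli centring Tnrc6a gave −0.042, Ago1 −0.19, Mov10 −0.22 and Ago3 −0.35. Median, ribosomal protein and Sertoli centring gave −0.089, −0.47 and −0.86 for Tnrc6b, −0.12, −0.50 and −0.89 for Tarbp2 and −0.081, −0.46 and −0.86 for Ago4. Quantile normalization gave −0.069 for Tarbp2 and −0.0084 for Ago4, and array weights gave −0.058 for Tnrc6b and −0.051 for Tarbp2. Leaving out 1 array gave −0.080 to 0.11 for Tnrc6b, −0.12 to 0.11 for Tarbp2 and −0.13 to 0.29 for Ago4. The cause was not tested.

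For pairs of members, leaving out 1 array gave −3.42 to −1.75 for Piwil1 minus Piwil4, −2.91 to −1.51 for Piwil2 minus Piwil4, −1.12 to −0.51 for Asz1 minus Pld6, 0.30 to 0.51 for Mael minus Gtsf1 and −0.15 to 0.040 for Henmt1 minus Pnldc1. The first 4 passed an unadjusted exact permutation p of 0.05 without under-developed replicate 4, where their values were −3.42, −2.91, −1.12 and 0.50. Replicate 4, which lay close to the normal testes, was singled out with the data in view, and few splits of the remaining arrays exist. These p-values are therefore not support for differences between members. With the replicate number as a block, 0 members and 0 of all genes were called in each comparison, so the block changed no call. Same-numbered under-developed and normal obese arrays correlated at 0.0771, 0.0069, 0.0237 and 0.2604 in their deviations, and 1 of the 4 under-developed arrays correlated best with its own number, so the numbers were not taken to pair samples. No scanner signal was used, so a bound set by background cannot be given for low values.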
